A study of Mus musculus with 15 samples.

Results

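The genes described here encode the mitotic machinery: the kinases that drive mitosis, the kinetochore that ties chromosomes to microtubules, the spindle, the checkpoint that delays anaphase, and the proteins of mitotic exit and cytokinesis. They were taken by gene symbol from a list of 43 drawn up by function, with earlier results of these data known. Of the 43, 42 had a probe set that carries exactly 1 gene symbol, among 22180 such genes in all. Ncapg was left without a value because its probe set is shared with another gene. Each of the 42 rests on 1 probe set.

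The arrays held RNA of carotid arteries from female C57Bl/6J mice aged 21 to 22 weeks, taken 5 days after the left common carotid artery had been ligated, a procedure that stops flow and sets off growth of a neointima. Adherent wound tissue was removed before RNA was made. There were 3 ligated arteries of mice labelled Has3 deficient, 4 ligated arteries of wildtype mice, 4 non-ligated arteries of Has3 deficient mice and 4 non-ligated arteries of wildtype mice. Has3 encodes 1 of the 3 mammalian enzymes that make hyaluronan, and the labels do not say in which cells it was deleted. They also do not say whether each array is a separate animal, so the p-values below measure the spread between these arrays. The question posed by the design is whether loss of Has3 alters the response of the artery to ligation.

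Values are log2 signals relative to each gene's own median over the 15 arrays, so they show differences between arrays and no absolute level. A value of 1 is a signal 2-fold above that median. The Has3 probe set itself did not differ by genotype (Has3 -0.20 ± 0.16 log2 units, SE, in Has3-deficient against wildtype ligated arteries and 0.09 ± 0.14 in non-ligated ones), and its place relative to the deleted sequence is not known here, so the genotype names follow the labels. Arrays differed in tissue carried along. The mean of 9 neuronal marker genes reached 4.30 and that of 9 fat marker genes 1.85 in single non-ligated arrays. Of the 8 non-ligated arrays, 5 had either mean above 1: Has3-deficient arrays 1, 3 and 4 and wildtype arrays 1 and 2. In non-ligated arteries all 9 neuronal markers had a higher mean in Has3-deficient than in wildtype arrays (median difference 1.17). None of them passed the test described below. Comparisons that use the non-ligated arrays are thus uneven in this tissue. The absolute levels needed to check the labelled tissue against its markers were lost by the centring.

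In most adult vessels smooth muscle cells and endothelium divide rarely, and cells re-enter the cycle after injury. Genes of mitosis are mostly silent in resting cells and are switched on late in the cycle. In resting and early cycling cells the DREAM complex represses many of them through the cell cycle genes homology region, a promoter element with the core TTTGAA, and later B-Myb and FoxM1 activate them, often together with the factor NF-Y at CCAAT boxes. In a bulk sample, more dividing cells and more RNA per dividing cell cannot be told apart.

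Ligation raised nearly the whole set in both genotypes. In Has3-deficient arteries 41 of 42 genes rose, against a background of 10.2% of all genes, and the remaining gene did not pass the test. In wildtype arteries 41 of 42 also rose, against a background of 13.2%. No member fell in either genotype, where 8.08% of all genes fell in Has3-deficient and 14.6% in wildtype arteries. All 42 changes were above 0 in Has3-deficient arteries, as were 41.3% of all changes there, and 41 of 42 in wildtype arteries, where 51.5% of all genes lay above 0 and 48.5% below. The median change of the 42 genes was 0.98 log2 units (1.98-fold) in Has3-deficient and 1.21 (2.32-fold) in wildtype arteries. Over all genes the medians were -0.03 in Has3-deficient and 0.01 in wildtype arteries. A gene counts as having risen or fallen where its Benjamini-Hochberg adjusted p over all 22180 genes, from 1 limma model of the 4 groups, was under 0.05. The exception in both genotypes was Anln.

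The groups were also apart array by array, with the same exception. In each of the 7 ligated arrays, 41 of the 42 genes lay above the highest of the 8 non-ligated arrays. The groups did not overlap for 41 genes in Has3-deficient arteries, where 13% of all genes were higher without overlap, and for 41 in wildtype arteries, where 14% were. A change above 1 log2 unit was seen for 20 members in Has3-deficient arteries and 28 in wildtype arteries, while 3.41% of all genes in Has3-deficient and 3.66% in wildtype arteries rose by as much.

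**Figure D1:**
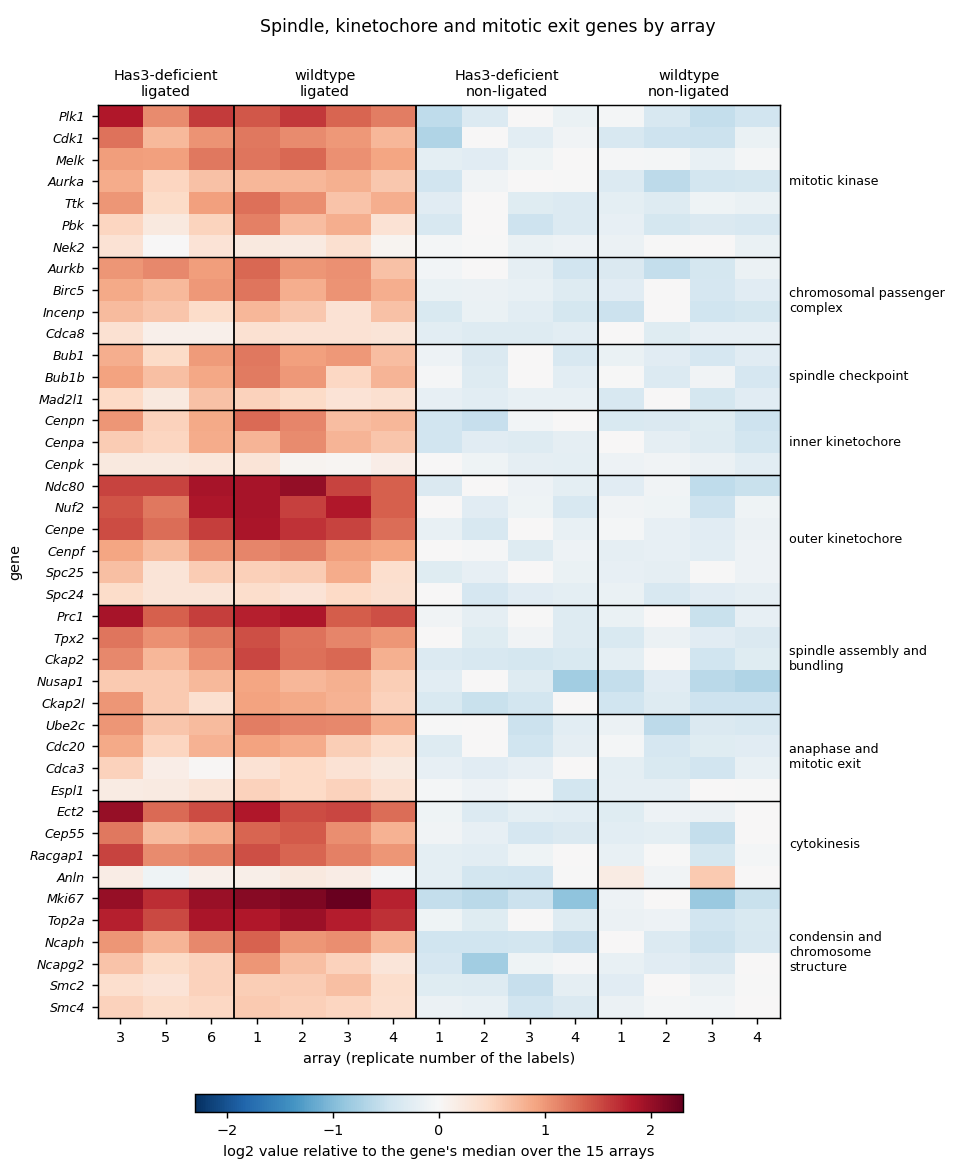
Log2 value of each of 42 genes (rows, grouped by role) in each of 15 arrays (columns, with the replicate number of the labels), relative to the gene's median over the 15 arrays. All 7 ligated arrays are above all 8 non-ligated arrays for 41 genes, and Anln is the exception.

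Some marker genes of other cells changed with ligation as well. The counts below stand against 10.2% of all genes higher and 8.08% lower in Has3-deficient arteries. In wildtype arteries these shares were 13.2% higher and 14.6% lower. A count of 1 on such short lists does not stand apart from them. All 8 macrophage markers and all 6 neutrophil markers rose in both genotypes. The mean of the macrophage markers lay between 2.27 and 2.50 in Has3-deficient ligated and 2.37 and 2.67 in wildtype ligated arteries, against -1.32 to -0.16 in Has3-deficient non-ligated and -0.72 to -0.16 in wildtype non-ligated ones. The mean of the neutrophil markers lay between 2.36 and 3.04 in Has3-deficient ligated and 2.07 and 3.21 in wildtype ligated arteries, against -1.22 to -0.38 in Has3-deficient non-ligated and -1.33 to -0.20 in wildtype non-ligated ones. Of 8 smooth muscle markers 8 fell in Has3-deficient and 7 in wildtype arteries. Endothelial markers went both ways, with 3 of 7 up and 3 down in each genotype. Fibroblast markers did too, with 3 of 7 up and 2 down in Has3-deficient and 2 up and 3 down in wildtype arteries. Among T cell markers 3 of 5 rose in Has3-deficient and 1 of 5 in wildtype arteries, and no B cell marker passed among 3. Of 9 fat markers none passed in Has3-deficient arteries (median change -0.34), and 3 fell in wildtype arteries (median change -1.37, all 9 below 0). None of 9 neuronal markers passed, with median changes of -1.46 in Has3-deficient and -0.44 in wildtype arteries. Of 8 skeletal muscle markers 1 rose and 1 fell in Has3-deficient and 1 fell in wildtype arteries, and none of 4 thyroid markers passed. These data do not say which cells carried the mitotic transcripts, and the part of cell composition in the rise was not tested.

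Promoters of the set were read for the elements named above. The windows, from RefSeq on GRCm38.p6, run from 250 bases before to 50 bases after each annotated start and cover 36 of the 42 genes. The hexamer on either strand was found for 26 of 36 genes (72.2%), against 17.8% of 16990 genes tested on the arrays that have a window of this length. Within 60 bases before to 50 after the start it was found for 24 of 36 (66.7%), against 5.19%. The CCAAT motif on either strand was found for 26 of 36 (72.2%), against 41.6%, and both motifs for 22 (61.1%), against 7.13%. Motifs of this length also occur by composition, and a match is not a binding site. The median GC content of the windows was 58.7% for the set and 56.7% for all genes.

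The stretches below are each the 120 bases upstream of a start, written 5′ to 3′ on the gene's strand. They show these elements in chosen genes of several stages and do not stand for the set. Bases after the start are not printed. Many members carry the hexamer near the start only after it, as do Cenpf (at 3), Plk1 (at 31) and Aurka (at 33). Cdc20 and Espl1 act at the onset of anaphase, Cdk1 at entry, Ube2c at exit and Prc1 at the midzone, while Nuf2 is shown as a kinetochore gene whose window has neither motif. Capitals mark either motif, read on the printed or on the opposite strand.
Cdc20, chr4:118437344-118437463, minus strand: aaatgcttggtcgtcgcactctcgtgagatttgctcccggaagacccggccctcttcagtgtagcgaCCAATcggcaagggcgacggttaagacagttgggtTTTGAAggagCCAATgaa
Espl1, chr15:102296173-102296292, plus strand: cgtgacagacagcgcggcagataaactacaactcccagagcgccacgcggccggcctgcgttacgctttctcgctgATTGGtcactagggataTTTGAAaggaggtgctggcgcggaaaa
Cdk1, chr10:69352913-69353032, minus strand: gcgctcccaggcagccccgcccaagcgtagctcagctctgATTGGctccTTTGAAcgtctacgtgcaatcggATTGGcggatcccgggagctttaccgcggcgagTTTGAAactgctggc
Ube2c, chr2:164769809-164769928, plus strand: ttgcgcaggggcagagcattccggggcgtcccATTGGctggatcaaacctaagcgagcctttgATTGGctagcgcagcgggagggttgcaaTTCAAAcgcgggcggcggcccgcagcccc
Prc1, chr7:80294356-80294475, plus strand: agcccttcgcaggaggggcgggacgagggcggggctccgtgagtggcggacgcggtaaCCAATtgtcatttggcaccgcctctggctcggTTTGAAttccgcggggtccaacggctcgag
Nuf2, chr1:169531465-169531584, minus strand: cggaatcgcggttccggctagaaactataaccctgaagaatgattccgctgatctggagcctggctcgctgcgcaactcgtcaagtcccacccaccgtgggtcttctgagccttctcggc
In Cdc20 the hexamer begins 18 bases before the start, in Espl1 27, in Ube2c 29 and in Prc1 30. Measured from another annotated start of Prc1, it begins 5 bases before. Cdk1 carries it at 71 and at 15 bases before the start.

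The 24 members that carry it near the start changed by a median of 0.98 log2 units in Has3-deficient and 1.19 in wildtype arteries. The 12 without it there changed by 1.12 in Has3-deficient and 1.26 in wildtype arteries. Anln has the hexamer at positions 22 and 29 after its start and did not rise in either genotype. Outside the set, 857 genes carry TTTGAA near the start, and of these 11.6% rose in Has3-deficient and 12.4% in wildtype arteries. Of the 16097 genes without it 10.2% rose in Has3-deficient and 13% in wildtype arteries.

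The kinases of mitosis all rose. Plk1, the kinase behind centrosome maturation, checkpoint recovery and cytokinesis, had 1.85, 1.08 and 1.60 log2 units in the 3 Has3-deficient ligated arrays, against -0.59, -0.32, 0 and -0.16 in the Has3-deficient non-ligated ones. In wildtype it had 1.43, 1.62, 1.34 and 1.17 in ligated arrays, against -0.04, -0.38, -0.55 and -0.44 in non-ligated arrays. The groups were far apart, and Plk1 rose by 1.78 ± 0.18 (3.42-fold, adjusted p = 8.1e-06) in Has3-deficient and 1.74 ± 0.17 (3.35-fold, adjusted p = 3.25e-06) in wildtype arteries.

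Cdk1, the cyclin-dependent kinase that starts mitosis, had 1.25, 0.75 and 1.04 in Has3-deficient ligated arrays, against -0.70, 0, -0.25 and -0.08 in Has3-deficient non-ligated ones. Wildtype Cdk1 was at 1.21, 1.09, 1.01 and 0.76 in ligated arrays, against -0.37, -0.48, -0.50 and -0.16 in non-ligated arrays. Its change was 1.27 ± 0.16 in Has3-deficient and 1.39 ± 0.15 in wildtype arteries. Melk rose by 1.19 in Has3-deficient and 1.21 in wildtype arteries, and Ttk, the checkpoint kinase also called Mps1, by 1.01 in Has3-deficient and 1.16 in wildtype arteries. Aurka, the Aurora kinase of centrosomes and spindle poles, rose by 0.81 in Has3-deficient and 1.17 in wildtype arteries, and Pbk by 0.70 in Has3-deficient and 1.08 in wildtype arteries. Nek2, which loosens the link between centrosomes, changed least among the kinases, by 0.30 (adjusted p = 0.0257) in Has3-deficient and 0.29 (adjusted p = 0.0144) in wildtype arteries. The Has3-deficient call for Nek2 was lost without ligated array 3 (0.25, adjusted p = 0.127) or 6 (0.26, adjusted p = 0.114), and without non-ligated array 3 (0.28) or 4 (0.29).

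The chromosomal passenger complex corrects faulty attachments and then moves to the midzone. All 4 measured subunits rose. Its kinase Aurkb rose by 1.20 ± 0.14 log2 units in Has3-deficient and 1.37 ± 0.13 in wildtype arteries. Birc5 (survivin) rose by 1.05, the scaffold Incenp by 0.88 and Cdca8 (borealin) by 0.47 in Has3-deficient arteries, and by 1.21, 0.94 and 0.49 in that gene order in wildtype arteries. Birc5 had 0.86, 0.74 and 0.99 in Has3-deficient ligated arrays, against -0.15, -0.14, -0.17 and -0.29 in Has3-deficient non-ligated ones. In wildtype Birc5 had 1.24, 0.83, 1.03 and 0.84 in ligated arrays, against -0.26, 0, -0.39 and -0.26 in non-ligated arrays. No ligated array of either genotype reached down to the non-ligated range.

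The 3 spindle checkpoint genes rose. They hold back anaphase until every kinetochore is attached. Bub1b, which encodes the checkpoint protein BubR1, had 0.93, 0.69 and 0.89 in Has3-deficient ligated arrays, against -0.03, -0.29, 0 and -0.24 in Has3-deficient non-ligated ones. For Bub1b in wildtype the values were 1.20, 0.99, 0.48 and 0.78 in ligated arrays, against -0.01, -0.32, -0.09 and -0.39 in non-ligated arrays. It rose by 0.98 ± 0.15 (adjusted p = 0.000306) in Has3-deficient and 1.07 ± 0.14 (adjusted p = 4.11e-05) in wildtype arteries. Bub1, the kinase that recruits other checkpoint proteins, rose by 0.96 in Has3-deficient and 1.23 in wildtype arteries, and Mad2l1, whose product inhibits Cdc20, by 0.64 in Has3-deficient and 0.67 in wildtype arteries.

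At the inner kinetochore, Cenpa encodes the histone H3 variant that marks centromeres, and Cenpn and Cenpk belong to the constitutive centromere network. Cenpa had 0.59, 0.49 and 0.85 in Has3-deficient ligated arrays, against -0.44, -0.26, -0.30 and -0.21 in Has3-deficient non-ligated ones. Wildtype Cenpa was at 0.78, 1.10, 0.78 and 0.64 in ligated arrays, against 0, -0.20, -0.29 and -0.42 in non-ligated arrays. Cenpa rose by 0.95 ± 0.12 in Has3-deficient and 1.05 ± 0.11 in wildtype arteries, and Cenpn by 1.06 in Has3-deficient and 1.33 in wildtype arteries. Cenpk rose by less, 0.36 ± 0.07 (adjusted p = 0.00267) in Has3-deficient and 0.28 ± 0.07 (adjusted p = 0.00554) in wildtype arteries.

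At the outer kinetochore, the Ndc80 complex is built of Ndc80, Nuf2, Spc24 and Spc25 and grips microtubules. Ndc80 had 1.55, 1.56 and 1.90 in Has3-deficient ligated arrays, against -0.33, 0, -0.11 and -0.23 in Has3-deficient non-ligated ones. In wildtype arteries Ndc80 had 1.90, 2.03, 1.55 and 1.38 in ligated arrays, against -0.26, -0.08, -0.58 and -0.51 in non-ligated arrays. Ndc80 rose by 1.84 ± 0.16 (3.58-fold, adjusted p = 1.58e-06) in Has3-deficient and 2.07 ± 0.15 (4.21-fold, adjusted p = 1.8e-07) in wildtype arteries, and its partner Nuf2 by 1.69 in Has3-deficient and 1.86 in wildtype arteries. Spc24 and Spc25, the partners at the other end of the same complex, rose by 0.56 and 0.68 in Has3-deficient and 0.64 and 0.72 in wildtype arteries. The size of a change is not on a common scale across probe sets, so this gap between partners was not tested. Cenpe, a kinetochore motor, rose by 1.64 in Has3-deficient and 1.75 in wildtype arteries, and Cenpf by 1.01 in Has3-deficient and 1.23 in wildtype arteries.

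The genes that build and bundle the spindle rose together. Prc1, which crosslinks antiparallel microtubules at the midzone, had 1.89, 1.37 and 1.59 in Has3-deficient ligated arrays, against -0.09, -0.21, -0.01 and -0.30 in Has3-deficient non-ligated ones. Wildtype Prc1 was at 1.79, 1.86, 1.40 and 1.49 in ligated arrays, against -0.15, 0, -0.50 and -0.20 in non-ligated arrays. Its change was 1.77 ± 0.15 in Has3-deficient and 1.85 ± 0.14 in wildtype arteries. Tpx2, the activator of Aurora A on the spindle, rose by 1.32 in Has3-deficient and 1.48 in wildtype arteries, and Ckap2 by 1.34 in Has3-deficient and 1.47 in wildtype arteries. Nusap1, a microtubule-binding protein, rose by 0.98 in Has3-deficient and 1.29 in wildtype arteries, and Ckap2l by 0.98 in Has3-deficient and 1.21 in wildtype arteries.

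All 4 genes grouped here under anaphase and exit rose. Cdc20, the activator of the anaphase-promoting complex, had 0.87, 0.49 and 0.80 in Has3-deficient ligated arrays, against -0.29, 0, -0.46 and -0.20 in Has3-deficient non-ligated ones. For Cdc20 in wildtype the values were 0.93, 0.85, 0.57 and 0.40 in ligated arrays, against -0.04, -0.39, -0.27 and -0.27 in non-ligated arrays. Cdc20 rose by 0.96 ± 0.14 in Has3-deficient and 0.93 ± 0.13 in wildtype arteries, and Ube2c, the ubiquitin-conjugating enzyme of that complex, by 0.98 ± 0.14 in Has3-deficient and 1.42 ± 0.13 in wildtype arteries. Espl1 (separase) rose by 0.39 ± 0.09 (adjusted p = 0.00812) in Has3-deficient and 0.57 ± 0.09 (adjusted p = 0.000161) in wildtype arteries. Cdca3 rose by 0.40 ± 0.11 (adjusted p = 0.0218) in Has3-deficient and 0.63 ± 0.10 (adjusted p = 0.000294) in wildtype arteries. The Has3-deficient call for Cdca3 was lost without ligated array 3 (0.25, adjusted p = 0.117) and without non-ligated array 1 (0.38) or 2 (0.37).

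**Figure D2:**
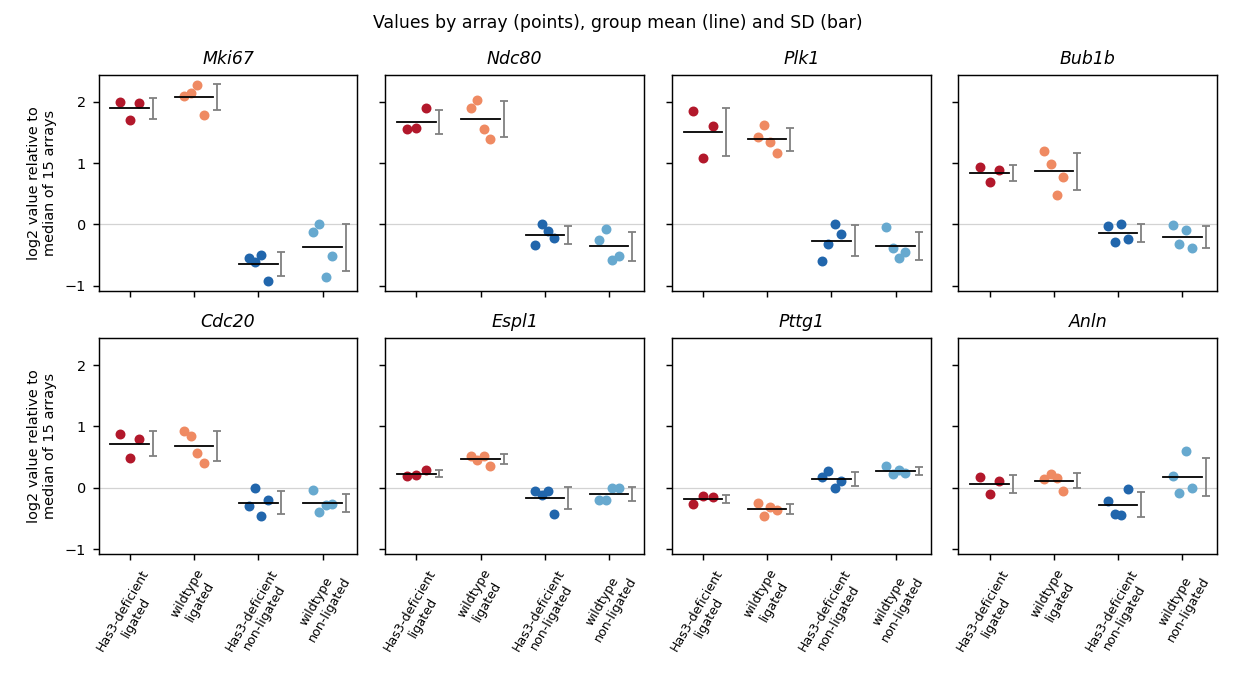
Log2 value in each array (points), group mean (line) and SD (bar), relative to the median of 15 arrays, for 7 genes of the set and for Pttg1. From Mki67 to Espl1 no ligated array of a genotype overlaps its non-ligated arrays, Pttg1 runs the other way, and Anln overlaps in both genotypes.

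In cytokinesis, 3 of 4 genes rose. Ect2, the exchange factor that activates RhoA at the cleavage furrow, had 2.00, 1.30 and 1.50 in Has3-deficient ligated arrays, against -0.10, -0.31, -0.22 and -0.25 in Has3-deficient non-ligated ones. Wildtype Ect2 was at 1.85, 1.51, 1.54 and 1.29 in ligated arrays, against -0.27, -0.12, -0.13 and 0 in non-ligated arrays. Ect2 rose by 1.82 ± 0.15 in Has3-deficient and 1.68 ± 0.14 in wildtype arteries. Racgap1, its binding partner in centralspindlin, rose by 1.41 in Has3-deficient and 1.40 in wildtype arteries, and Cep55, which recruits the abscission machinery, by 1.18 in Has3-deficient and 1.41 in wildtype arteries.

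Anln, the scaffold of actin and septins in the contractile ring, was the exception. It had 0.17, -0.10 and 0.11 in Has3-deficient ligated arrays, against -0.22, -0.42, -0.44 and -0.02 in Has3-deficient non-ligated ones. In wildtype arteries Anln had 0.14, 0.22, 0.16 and -0.05 in ligated arrays, against 0.20, -0.08, 0.60 and 0 in non-ligated arrays. The groups overlapped in both genotypes, with changes of 0.34 ± 0.15 (adjusted p = 0.148) in Has3-deficient and -0.06 ± 0.14 (adjusted p = 0.813) in wildtype arteries. Non-ligated wildtype array 3 was the highest of the 15 for Anln, and without it the wildtype change was 0.08 (adjusted p = 0.703). Anln was also the only member called bright, as defined in the section on processing. The part of signal level in this exception was not tested.

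All 6 genes of condensin and chromosome structure rose. Mki67 encodes Ki-67, the coat protein of mitotic chromosomes used to mark cycling cells. It had 2.00, 1.70 and 1.98 in Has3-deficient ligated arrays, against -0.55, -0.62, -0.49 and -0.92 in Has3-deficient non-ligated ones. For Mki67 in wildtype the values were 2.09, 2.14, 2.27 and 1.78 in ligated arrays, against -0.13, 0, -0.85 and -0.52 in non-ligated arrays. Its change of 2.54 ± 0.18 (5.81-fold, adjusted p = 2.89e-07) in Has3-deficient and 2.45 ± 0.17 (5.45-fold, adjusted p = 1.29e-07) in wildtype arteries was the largest of the 42 genes in both.

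Top2a, the topoisomerase that untangles sister chromatids, followed with 1.90 in Has3-deficient and 2.08 in wildtype arteries. Of the condensin subunits, Ncaph of condensin I rose by 1.44 in Has3-deficient and 1.34 in wildtype arteries, and Ncapg2 of condensin II by 0.87 in Has3-deficient and 0.81 in wildtype arteries. Their shared ATPases Smc2 and Smc4 rose by 0.74 and 0.74 in Has3-deficient and by 0.66 and 0.57 in wildtype arteries.

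**Figure D3:**
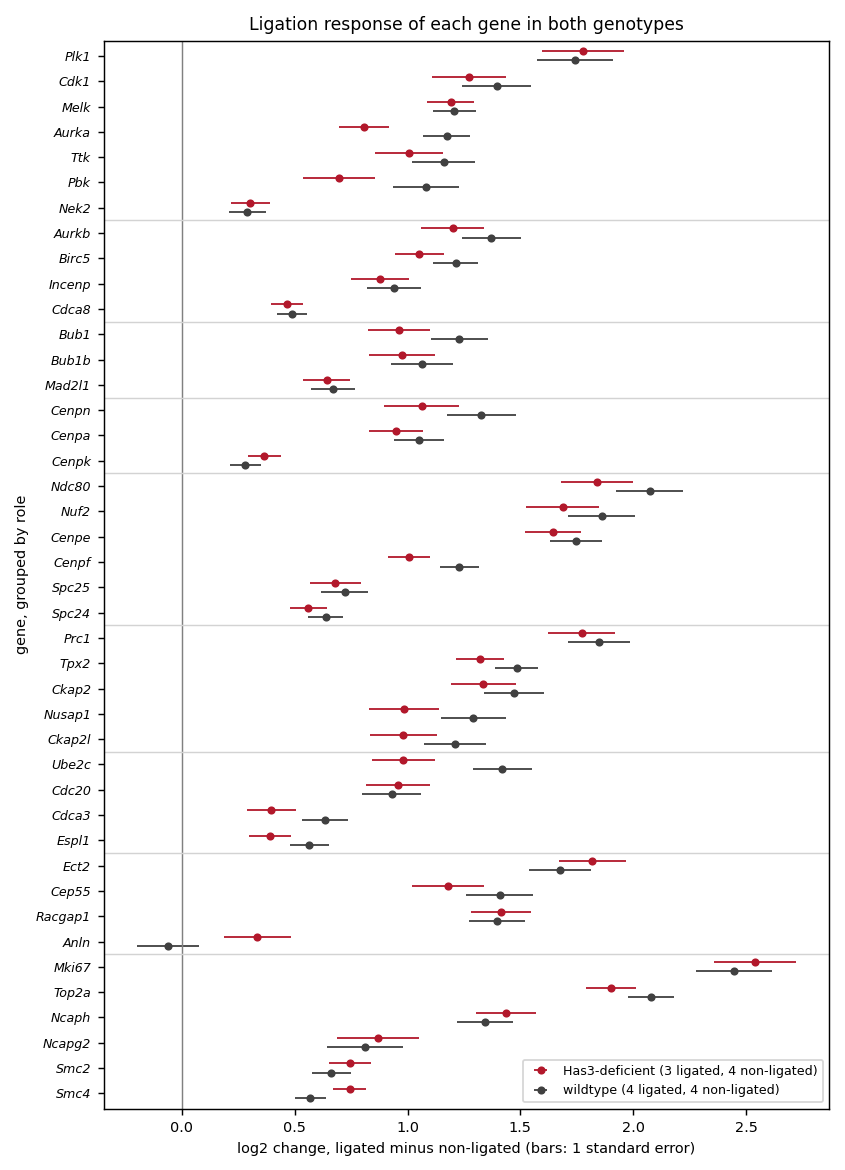
Log2 change with ligation (ligated minus non-ligated) of 42 genes in Has3-deficient (upper point of each pair) and wildtype arteries (lower point), with 1 standard error, grouped by role. All changes but those of Anln passed the test; the largest is that of Mki67 (2.54 in Has3-deficient and 2.45 in wildtype arteries) and the smallest to pass are those of Nek2 and Cenpk.

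Other genes of the same processes were less uniform. The members and the lists of further genes were chosen with earlier results known, so the contrast between them is a description. Over all genes 10.2% rose and 8.08% fell in Has3-deficient arteries, and 13.2% rose and 14.6% fell in wildtype arteries, with medians of -0.03 in Has3-deficient and 0.01 in wildtype arteries. Of 29 further kinetochore and checkpoint genes 13 rose in Has3-deficient and 16 in wildtype arteries, and none fell (median change 0.37 in Has3-deficient and 0.32 in wildtype arteries). Of these, Knl1, the scaffold on which checkpoint proteins assemble, rose by 1.25 in Has3-deficient and 1.50 in wildtype arteries. Spdl1, which brings dynein to kinetochores, rose by 0.94 in Has3-deficient and 1.20 in wildtype arteries, Cenpi of the inner kinetochore by 0.83 in Has3-deficient and 0.93 in wildtype arteries, and Ska3, which couples kinetochores to microtubules, by 0.50 in Has3-deficient and 0.72 in wildtype arteries. Of 23 further spindle and centrosome genes 13 rose and 1 fell in each genotype (median change 0.31 in Has3-deficient and 0.43 in wildtype arteries). Hmmr was at 1.43 in Has3-deficient and 1.41 in wildtype arteries, Dlgap5 at 1.42 in Has3-deficient and 1.28 in wildtype arteries, Stil at 1.11 in Has3-deficient and 1.25 in wildtype arteries and Aspm at 0.95 in Has3-deficient and 1.06 in wildtype arteries. Of 3 other condensin genes 2 rose in Has3-deficient and 1 in wildtype arteries, and none fell (median change 0.31 in Has3-deficient and 0.14 in wildtype arteries). Their changes lay between 0.003 and 0.63 in Has3-deficient and between 0.07 and 0.83 in wildtype arteries. Ncapd2 rose by 0.63 in Has3-deficient and 0.83 in wildtype arteries.

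The anaphase-promoting complex and its other regulators showed no common rise. Of 18 genes none rose and 2 fell in Has3-deficient arteries, and 2 rose and 5 fell in wildtype arteries (median change -0.02 in Has3-deficient and -0.15 in wildtype arteries). The background is 10.2% higher and 8.08% lower in Has3-deficient, and 13.2% higher and 14.6% lower in wildtype arteries. Many of these genes, unlike most members, were called bright, as defined in the section on processing. When the 3200 bright genes were fitted alone, 366 of them rose and 421 fell in Has3-deficient arteries. In wildtype arteries 461 of them rose and 896 fell. The part of signal level in these calls was not tested. Pttg1 encodes securin, which the complex destroys to free separase, and it fell. It had -0.26, -0.13 and -0.15 in Has3-deficient ligated arrays, against 0.17, 0.27, 0 and 0.12 in Has3-deficient non-ligated ones. Wildtype Pttg1 was at -0.25, -0.45, -0.32 and -0.36 in ligated arrays, against 0.36, 0.22, 0.29 and 0.25 in non-ligated arrays. Neither pair of groups overlapped, and Pttg1 changed by -0.32 ± 0.07 (adjusted p = 0.00509) in Has3-deficient and -0.62 ± 0.07 (adjusted p = 6.31e-06) in wildtype arteries. Anapc5, a subunit of the complex, fell as well (-0.41 in Has3-deficient and -0.45 in wildtype arteries). Fzr1, the coactivator of late mitosis, was at 0.18 (adjusted p = 0.177) in Has3-deficient arteries and rose in wildtype (0.47, adjusted p = 0.00032). Ube2s, which extends ubiquitin chains for the complex, was at 0.25 (adjusted p = 0.149) in Has3-deficient and 0.42 (adjusted p = 0.00597) in wildtype arteries. The wildtype call for Ube2s was lost without the arrays high in fat or neuron genes (0.31, adjusted p = 0.071) and with the means of those markers as covariates (0.31, adjusted p = 0.0647).

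Of 12 cohesin genes 2 rose and none fell in Has3-deficient arteries, and 2 rose and 5 fell in wildtype arteries (median change -0.01 in Has3-deficient and -0.22 in wildtype arteries). Many of these genes were called bright too. The shares over all genes are 10.2% higher and 8.08% lower in Has3-deficient and 13.2% higher and 14.6% lower in wildtype arteries. Those that rose were Cdca5 (sororin; 0.58 in Has3-deficient and 0.76 in wildtype arteries) and Esco2 (0.49 in Has3-deficient and 0.66 in wildtype arteries), both of which act in sister chromatid cohesion. The Has3-deficient call for Esco2 was lost without ligated array 3 (0.46, adjusted p = 0.0657) or 6 (0.45, adjusted p = 0.0633). Smc3, a ring subunit, was at -0.14 (adjusted p = 0.364) in Has3-deficient arteries and fell in wildtype (-0.50, adjusted p = 0.000655), and Pds5b was at -0.25 (adjusted p = 0.0619) in Has3-deficient and -0.41 (adjusted p = 0.00141) in wildtype arteries. Without wildtype ligated array 1 or 3 the Has3-deficient change of Pds5b passed (adjusted p = 0.0476 and 0.0464). Of 8 genes of mitotic entry 3 rose in both genotypes and 1 fell in wildtype arteries (median change 0.01 in Has3-deficient and -0.06 in wildtype arteries). The 3 were Cdc25c, the phosphatase that activates Cdk1 (0.98 in Has3-deficient and 0.92 in wildtype arteries), Mastl (0.69 in Has3-deficient and 0.98 in wildtype arteries) and Bora (0.48 in Has3-deficient and 0.43 in wildtype arteries). Without the arrays high in fat or neuron genes the Has3-deficient calls of Cdc25c (0.77, adjusted p = 0.0527), Mastl (0.75, adjusted p = 0.0793) and Esco2 (0.33, adjusted p = 0.352) were lost. Arpp19, a target of Mastl, was at -0.11 (adjusted p = 0.316) in Has3-deficient and -0.26 (adjusted p = 0.00476) in wildtype arteries, where its call was lost without those arrays (-0.24, adjusted p = 0.0614).

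Of 10 further cytokinesis genes 2 rose and 2 fell in Has3-deficient, and 5 rose and 2 fell in wildtype arteries (median change 0.21 in Has3-deficient and 0.25 in wildtype arteries). Of all genes 10.2% rose and 8.08% fell in Has3-deficient, and 13.2% rose and 14.6% fell in wildtype arteries. Arhgap11a rose by 1.51 in Has3-deficient and 1.43 in wildtype arteries and Chmp4b by 0.25 in Has3-deficient and 0.39 in wildtype arteries, while Chmp4c fell (-0.77 in Has3-deficient and -0.50 in wildtype arteries). Both Chmp4 genes encode parts of the abscission machinery. The Has3-deficient call for Chmp4b was lost without any 1 of 8 arrays (0.21 to 0.29), and the wildtype call for Chmp4c without any 1 of 7 (-0.53 to -0.41). Cit, which encodes citron kinase, was at 0.35 (adjusted p = 0.157) in Has3-deficient and 0.77 (adjusted p = 0.001) in wildtype arteries, and without Has3-deficient non-ligated array 3 the Cit change there was 0.52 (adjusted p = 0.00261). Of 19 transcription regulators of the cycle 6 rose and 3 fell in Has3-deficient, and 10 rose and 6 fell in wildtype arteries (median change 0.22 in Has3-deficient and 0.31 in wildtype arteries), against the same background. Foxm1 rose by 0.69 ± 0.12 in Has3-deficient and 0.74 ± 0.11 in wildtype arteries, E2f8, a repressor, by 1.54 in Has3-deficient and 1.56 in wildtype arteries, and the pocket protein gene Rbl1 by 0.80 in Has3-deficient and 0.73 in wildtype arteries. Tfdp2, a partner of E2F factors, fell (-0.53 in Has3-deficient and -0.89 in wildtype arteries). Without Has3-deficient ligated array 3, Tfdp2 was at -0.40 there (adjusted p = 0.0597).

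Between genotypes in ligated arteries, none of the 42 genes passed, as none of all 22180 did (0% of genes called). An unadjusted p under 0.05 was seen for 2 members and for 910 of all genes, and no alternative fit gave a call for a member. The difference, Has3-deficient minus wildtype, was below 0 for 34 of 42 members, against 52.9% of all genes, and above 0 for 8, against 47.1%. Its median was -0.08 log2 units (0.943-fold) against -0.01 over all genes. Members share cells and arrays and are not independent of each other, so this count is a description.

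The members with the lowest p in that comparison were of several roles. Espl1 differed by -0.23 ± 0.09 (limma, adjusted p = 0.9999). It had 0.19, 0.21 and 0.29 in Has3-deficient ligated arrays, against 0.53, 0.45, 0.53 and 0.36 in wildtype ligated ones. It was the only member whose arrays did not overlap, where 3.35% of all genes were lower and 3.55% higher without overlap. No member differed by more than 1 upward, as 0.0316% of all genes did. Pbk differed by -0.35 ± 0.16, Ube2c by -0.27 ± 0.14, Cdca8 by -0.13 ± 0.07 and Ckap2 by -0.25 ± 0.14. Mki67, at -0.18 ± 0.18, had overlapping arrays.

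For 33 of 42 members the 95% interval of the genotype difference in ligated arteries lay within 0.5 log2 units of 0, and for all 42 within 1. The lowest bound was -0.69 and the highest 0.51. The failed tests do not show that the genotypes were alike.

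Between single ligated arrays the set moved up and down together. The array medians of the 42 genes were 0.92, 0.62 and 0.86 in Has3-deficient ligated arrays, against 1.19, 0.999, 0.84 and 0.73 in wildtype ligated ones. In Has3-deficient array 5 the value was the lowest of its group for 35 of 42 genes, and in wildtype array 4 for 33 of 42. Wildtype array 1 was the highest of its group for 25 genes. The genotypes overlapped, and the spread between arrays of 1 group (0.62 to 0.92 in Has3-deficient, 0.73 to 1.19 in wildtype) was wider than the gap between the group medians (0.86 in Has3-deficient, 0.92 in wildtype).

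The smooth muscle marker mean was -0.51, -0.33 and -0.35 in the Has3-deficient ligated arrays, against -0.79, -0.76, -0.84 and -0.37 in the wildtype ligated ones. Wildtype array 4 thus had the highest smooth muscle mean and the lowest mitotic median of its group, and the same held for Has3-deficient array 5. The fat marker mean was -0.36, 0.41 and 0.38 in Has3-deficient ligated arrays, against -1.46, -1.23, -0.42 and 0.12 in wildtype ligated ones. The part of either in the difference between arrays was not tested. Leaving out Has3-deficient array 5 moved the median genotype difference to -0.03, and leaving out wildtype array 4 moved it to -0.15.

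After removal of group means, the correlation between pairs of members over the 15 arrays had a median of 0.31, with 86.5% of 861 pairs above 0, against a median of 0.02 between members and all genes. These points share arrays and normalization. Ckap2 had the highest median correlation with the other members (0.52), and Incenp the lowest (0.002).

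In non-ligated arteries the genotypes did not differ by test for any member, where 0.0857% of all genes did (0.00902% higher and 0.0766% lower). An unadjusted p under 0.05 was seen for 4 members and for 2979 of all genes. The difference was above 0 for 26 and below 0 for 16 members, against 54.1% of all genes above and 45.9% below 0, and its median was 0.02. The lowest p values were those of Anln (-0.46 ± 0.14, adjusted p = 0.173), Smc4 (-0.21 ± 0.07, adjusted p = 0.203), Aurka (0.30 ± 0.10, adjusted p = 0.223), Smc2 (-0.23 ± 0.09, adjusted p = 0.268) and Cdca8 (-0.11 ± 0.07, adjusted p = 0.512). Smc4, at -0.14, -0.18, -0.43 and -0.33 in Has3-deficient arrays, against -0.13, -0.05, -0.07 and 0 in wildtype arrays, was the only member without overlap, where 3.82% of all genes were lower and 2.4% higher without overlap. For 38 of 42 members the 95% interval lay within 0.5 log2 units of 0. Absolute levels were lost by the centring, so how many of these genes lay near the array background is not known. These failed tests, too, do not show that the genotypes were alike.

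The ligation responses were then compared directly. The response in Has3-deficient arteries minus that in wildtype arteries was below 0 for 30 of 42 members, against 54.2% of all genes, and above 0 for 12, against 45.8%, with a median of -0.10 log2 units. No member and no gene on the array passed this interaction test (0% called), and 2 members and 1802 of all genes had an unadjusted p under 0.05. The lowest p values were those of Aurka (-0.37 ± 0.15, adjusted p = 0.575), Ube2c (-0.44 ± 0.19, adjusted p = 0.598), Anln (0.40 ± 0.20, adjusted p = 0.641), Pbk (-0.38 ± 0.21, adjusted p = 0.679) and Cenpf (-0.22 ± 0.13, adjusted p = 0.684). The interval lay within 0.5 for 19 members and within 1 for 42. The difference of responses uses all 4 groups, so it is estimated less precisely (median standard error 0.18) than the genotype difference in ligated arteries (0.14).

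**Figure D4:**
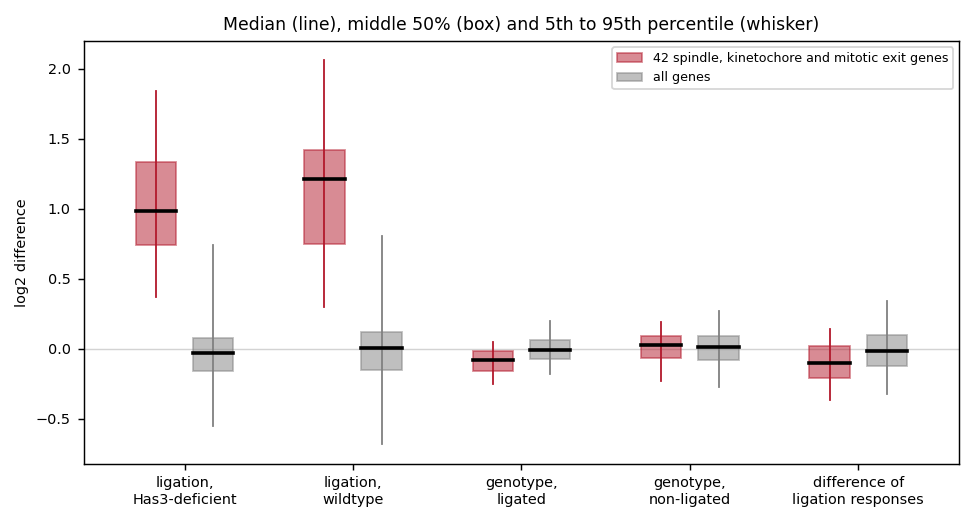
Log2 differences of the 42 genes (left of each pair) and of all 22180 genes (right) in the 5 comparisons, as median, middle 50% and 5th to 95th percentile. The set stands above all genes for ligation in both genotypes (medians 0.98 in Has3-deficient and 1.21 in wildtype). For genotype its median was -0.08 in ligated arteries, against -0.01 over all genes, and 0.02 in non-ligated arteries, against 0.01. For the difference of ligation responses it was -0.10, against -0.02 over all genes.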

How the data were processed

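The authors deposited log2 values for 33793 probe sets on 15 one-colour arrays, each probe set relative to its own median over the arrays. Biotin-labelled cDNA was made from 100 ng of total RNA, per the labels' protocols. Base 2 is inferred from the spread of the values, and which software and normalization were used is not given here. Array medians lay between -0.001 and 0.017. Arrays give no read depth, so precision is limited by their number. Probe sets with 1 gene symbol in the platform annotation (23521) were averaged to 22180 genes. One fit of limma 3.58.1 (R 4.3.3; lmFit, eBayes) held all 4 groups, and p-values were adjusted over all genes by Benjamini-Hochberg. The code was tested on simulated data.

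The members and the gene lists were chosen with earlier results of these data known. Named genes were all members, up to 4 called genes with the largest wildtype change in each other list, and the 5 members with the lowest p between genotypes. The array medians by member, the correlation of deviations, the promoter motifs and the printed promoters were chosen after the data were seen. Centring removed levels, so dim genes could not be filtered directly. As an alternative, genes were called bright (3200) where the rounding step of their stored values is that of single-precision numbers in a high range before centring. Alternatives were other normalizations, array weights, a robust prior, the groups compared alone, blocks for replicate number, another choice of probe set, other tissue in the arrays, and leaving out each array. Replicate numbers were not taken as pairs, since the labels do not say that a number marks a single animal. Same-numbered wildtype arrays correlated at 0.03, 0.05, 0.10 and 0.16 in their deviations from group means. Differently numbered ones correlated at -0.21 to 0.12, and these values do not settle whether the numbers are pairs.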

Additional observations from a re-analysis of the deposited data

Results flagged for a closer look

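In groups of 4 arrays, 6 of 126 combinations of member and group had 1 array far from the other 3, where chance gives about 1 in 20. All were non-ligated. In Has3-deficient arteries Aurka was low in array 1 (-0.45, against -0.07 to 0 in the others) and Ttk was high in array 2 (0, against -0.31 to -0.26). In wildtype arteries Nuf2 was low in array 3 (-0.47, against -0.10 to -0.08), and so was Melk (-0.18, against -0.05 to -0.04). Array 2 was high for Incenp (0, against -0.49 to -0.41) and for Ckap2l (-0.29, against -0.48 to -0.46).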

How the results depend on the processing

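The number of members that rose stayed at 39 to 41 in Has3-deficient and at 41 in wildtype arteries when each array was left out in turn, and no member fell. The median change ranged from 0.94 to 1.08 in Has3-deficient and from 1.16 to 1.28 in wildtype arteries. Between genotypes no member passed under any of these, with medians from -0.15 to -0.03 in ligated and 0.01 to 0.03 in non-ligated arteries and -0.18 to -0.02 for the interaction. Quantile normalization moved the wildtype median to 1.03, and the cause was not tested. Without the 5 arrays high in fat or neuron genes, which leaves 1 Has3-deficient non-ligated array assumed to vary like the others, 36 members rose in Has3-deficient and 40 in wildtype arteries. With the replicate block, fixed (wildtype) or random, 41 members rose in wildtype arteries. With fat and neuron means as covariates 39 members rose in each genotype. Calls of the members Nek2, Cdca3, Cenpk, Ttk and Pbk, and of Cdc25c, Mastl, Esco2, Chmp4b, Chmp4c, Tfdp2, Arpp19 and Ube2s from the other lists, were lost under at least 1 alternative. Signs turned for Smc3 in Has3-deficient arteries without the 5 arrays (0.0076), Anln in wildtype without non-ligated array 3 (0.0785), and Has3 between non-ligated genotypes without Has3-deficient array 2 (-0.0115; 0.152 at the other end of the range over left-out arrays). The filter on bright genes kept 1 member, Anln, the one that rose in neither genotype, and so gave no value for the set.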
